A study of Mus musculus with 21 samples.

Results

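The effect of the C2mE transgenes was followed in gastric mucosa that already carried a Wnt1 transgene, by setting the arrays of 5 K19-Wnt1/C2mE mice against those of 5 K19-Wnt1 mice. These are 10 of the 21 arrays of the study, and they were chosen by genotype alone, so that none of the values below took part in the choice. K19-Wnt1/C2mE mice overexpress Wnt1 together with COX-2 and the microsomal prostaglandin E synthase mPGES-1 (C2mE), and K19-Wnt1 mice overexpress Wnt1 only, each transgene being driven in gastric epithelium by the keratin 19 (K19) promoter. The K19-Wnt1/C2mE animals are described as developing dysplastic gastric tumors. C57BL/6 is the only strain named in the methods, where it is given with the wild-type mice. All mice were labelled female and were between 18 and 65 weeks of age, with no age given for the single animal. Each array held RNA of the glandular stomach of 1 mouse. Beside these, 3 K19-C2mE and 3 wild-type mice, and 3 K19-Nog/C2mE and 2 K19-Nog mice (Nog is the BMP antagonist noggin), were used to ask whether C2mE acted differently without Wnt1 or beside noggin.

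Prostaglandin E2 is made from arachidonic acid by cyclooxygenases and terminal synthases, acts on the receptors EP1 to EP4, and is removed from tissue by a transporter and a dehydrogenase. In the stomach it restrains acid secretion, sustains mucus and blood flow, and takes part in inflammation and tumor growth. Wnt ligands stabilise beta-catenin, which together with Tcf factors turns on genes of stem and progenitor cells. The levels below are log2 signals of 1 probe set per gene, differences are K19-Wnt1/C2mE minus K19-Wnt1 on the log2 scale with their standard error (SE), and array values are listed in the order of the array numbers, 1 to 5 for K19-Wnt1/C2mE and 1, 2, 4, 5 and 6 for K19-Wnt1.

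Arrays of the same genotype were close to each other, with correlations over probe sets of 0.985 to 0.993 within K19-Wnt1/C2mE and 0.991 to 0.996 within K19-Wnt1, against 0.95 to 0.968 between the genotypes. Several arrays nevertheless stood apart. Y-linked genes gave a signal in 1 of 5 K19-Wnt1/C2mE arrays (array 5) and in 4 of 5 K19-Wnt1 arrays (all but array 6), although the labels give female throughout, so the genotypes also differed in this signal. With the Y-linked signal in each array as a covariate 197 of the 205 named genes that changed stayed past the threshold. Without the arrays that carry it, 4 K19-Wnt1/C2mE arrays remained against a single K19-Wnt1 array, which is then assumed to vary like the others, and 122 of 205 stayed, all with the direction they had. K19-Wnt1/C2mE array 3 kept the highest signal of parietal and chief cell genes of its genotype, array 2 had the highest signal of forestomach squamous genes and array 1 the highest signal of inflammatory genes. Among K19-Wnt1 mice, arrays 1 and 2 carried gastrin, a hormone of the antrum, and the others did not. In whole tissue, fewer cells of a type and less RNA per cell cannot be told apart.

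C2mE changed a large part of the transcriptome of Wnt1 stomachs. Of 18193 genes, 4063 (22.3%) were higher and 3856 (21.2%) lower in K19-Wnt1/C2mE than in K19-Wnt1 at an adjusted p under 0.05, and 797 (4.38%) and 683 (3.75%) of these differed at least 2-fold. Counts in the gene lists below are to be read against the 22.3% higher and 21.2% lower over all genes. The 5 arrays of one genotype lay wholly above or below the 5 of the other for 5468 genes (30.1%), and the median difference over all genes was -0.02. Spread was wider in the tumor-bearing genotype. The median SD of a gene was 0.163 in K19-Wnt1/C2mE and 0.132 in K19-Wnt1, and 156 genes had an SD above 1 in K19-Wnt1/C2mE, against 25 in K19-Wnt1. Of the 31 such genes that fell, 26 were highest in K19-Wnt1/C2mE array 3. Of the 67 that rose, 32 were highest in array 2 and 18 in array 1.

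**Figure D1:**
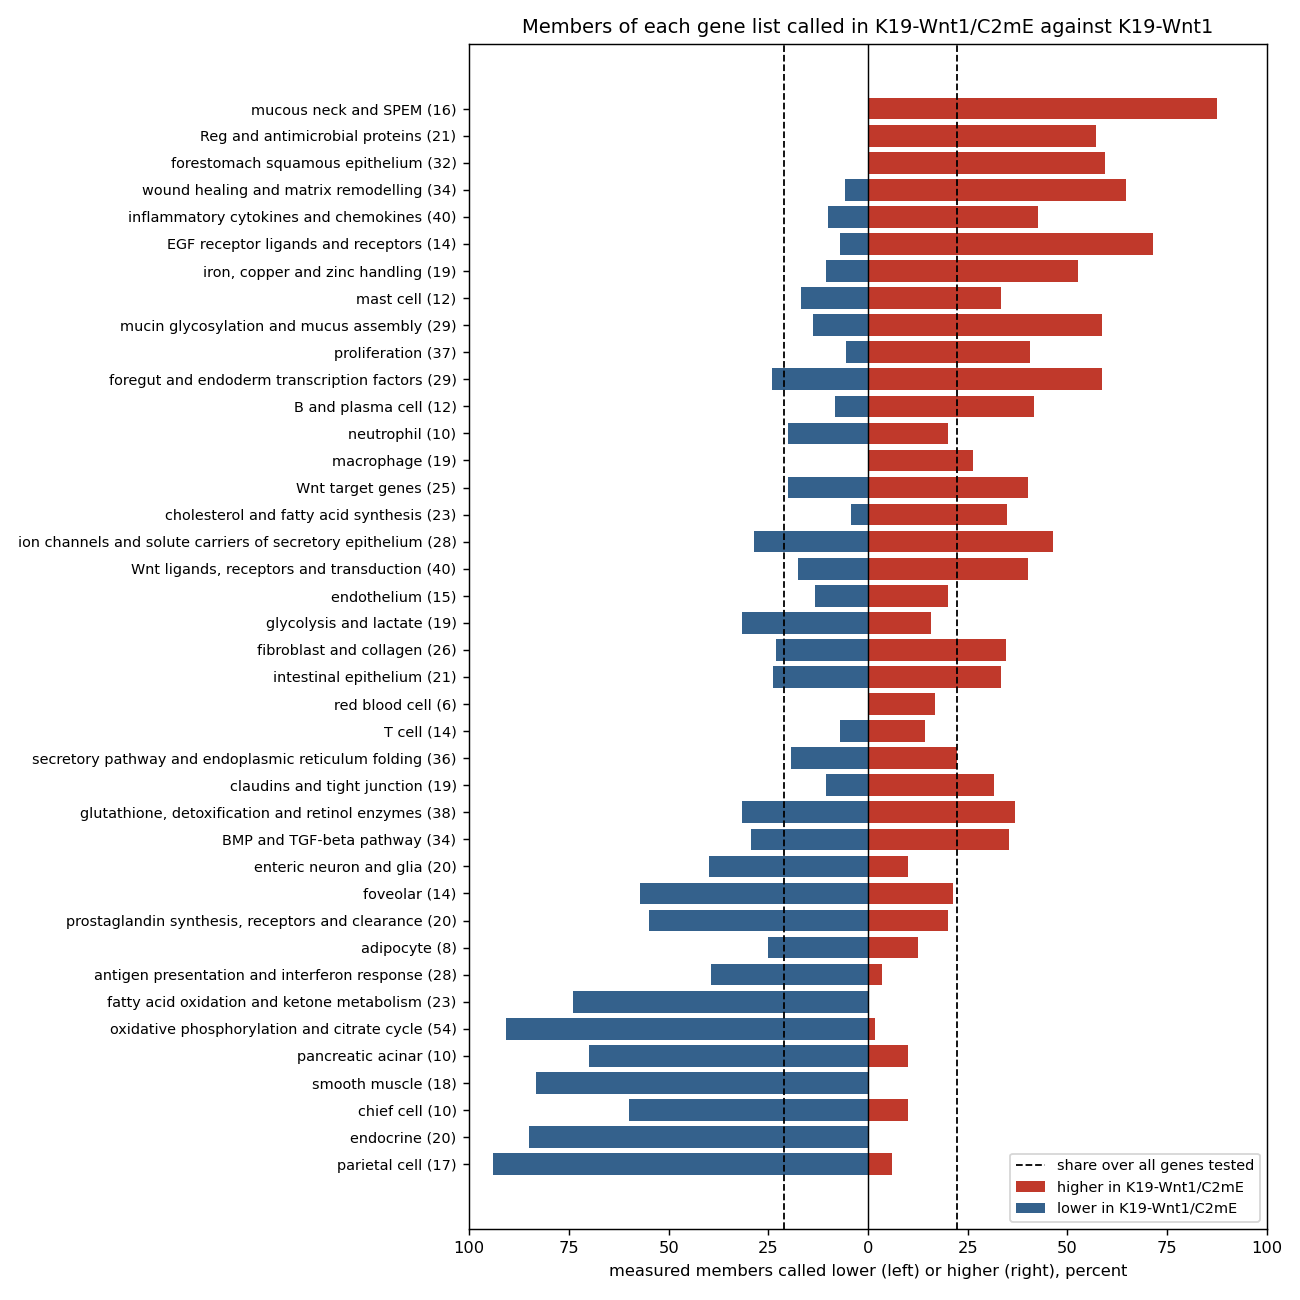
Share of the measured members of each gene list that were lower (left, blue) or higher (right, red) in K19-Wnt1/C2mE than in K19-Wnt1, with the number of measured members in brackets and dashed lines at the share over all genes tested. Mucous neck and SPEM genes lie furthest to the right and parietal cell genes furthest to the left.

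The transgene genes themselves gave an uneven picture. Ptgs2, which encodes COX-2, had signals of 9.62, 9.58, 9.54, 9.89 and 10.49 in K19-Wnt1/C2mE, against 7.3, 7.49, 7.46, 8.04 and 7.15 in K19-Wnt1. Every K19-Wnt1/C2mE array was above every K19-Wnt1 array, and the difference was 2.34 (SE 0.19, adjusted p = 1.39e-08), although the other Ptgs2 probe set did not pass the threshold. Ptges, which encodes mPGES-1, measured 6.49, 6.53, 6.43, 7.1 and 7.24 in K19-Wnt1/C2mE, against 6.36, 6.64, 6.33, 6.31 and 6.43 in K19-Wnt1. The genotypes overlapped, only K19-Wnt1/C2mE arrays 4 and 5 lay above the K19-Wnt1 range, and the difference of 0.35 (SE 0.15, adjusted p = 0.0774) did not pass. Wnt1, present as a transgene in both genotypes, was 0.28 lower in K19-Wnt1/C2mE (SE 0.1, adjusted p = 0.0382), a call that 11 of 22 alternatives kept, with adjusted p between 0.0156 and 0.503, and that was lost without K19-Wnt1/C2mE array 3 or 4 or K19-Wnt1 array 1 or 2. Whether these probe sets read the transgene messages is not given in the sources used here.

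Beyond the transgenes, the prostaglandin pathway moved mostly downward. Of 20 measured genes of prostaglandin synthesis, receptors and clearance, 4 rose (the share over all genes being 22.3%), 11 fell (21.2% over all genes) and 5 did not pass, with a median difference of -0.30. Among the receptors, Ptger4, which encodes the cAMP-coupled EP4, had signals of 10.81, 10.75, 10.56, 11.16 and 10.36 in K19-Wnt1/C2mE, against 8.32, 8.17, 7.65, 7.54 and 8.0 in K19-Wnt1, a rise of 2.79 (SE 0.18, adjusted p = 3.64e-10). Ptger3, which encodes EP3, a receptor that lowers cAMP, had 3.92, 3.79, 4.93, 3.47 and 3.74 in K19-Wnt1/C2mE, against 7.25, 7.35, 7.2, 7.14 and 7.79 in K19-Wnt1, a fall of 3.38 on the log2 scale (SE 0.27, adjusted p = 1.01e-08). The arrays did not overlap for either receptor, and they moved in opposite directions. The remaining receptors, looked up after the values of these were seen, were lower as well. Ptger2 (EP2) differed by -0.97 (SE 0.14, adjusted p = 2.14e-05) and Ptger1 (EP1) by -0.29 (SE 0.1, adjusted p = 0.0223, over its alternatives 0.00751 to 0.597), and for Ptger1 the arrays overlapped and the call was lost without K19-Wnt1 array 1 or K19-Wnt1/C2mE array 2 or 4.

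Both steps that remove prostaglandin were lower. Slco2a1, the prostaglandin uptake transporter, measured 8.12, 8.74, 8.75, 7.95 and 8.59 in K19-Wnt1/C2mE, against 10.21, 10.41, 10.46, 10.09 and 10.48 in K19-Wnt1 (difference -1.90, SE 0.26, adjusted p = 8.29e-06). Hpgd, the dehydrogenase that inactivates prostaglandin E2, averaged 10.69 ± 0.40 in K19-Wnt1/C2mE and 11.7 ± 0.17 in K19-Wnt1 (SD, n = 5 each, difference -1.01, adjusted p = 0.000317). Ptgis, the prostacyclin synthase, fell by 1.6 on the log2 scale (adjusted p = 3.34e-07). On the supply and export side, Pla2g4a, a phospholipase that releases arachidonic acid, rose by 0.51 (adjusted p = 0.000804) and Abcc4, which exports prostaglandins, by 0.93 (adjusted p = 0.000239).

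**Figure D2:**
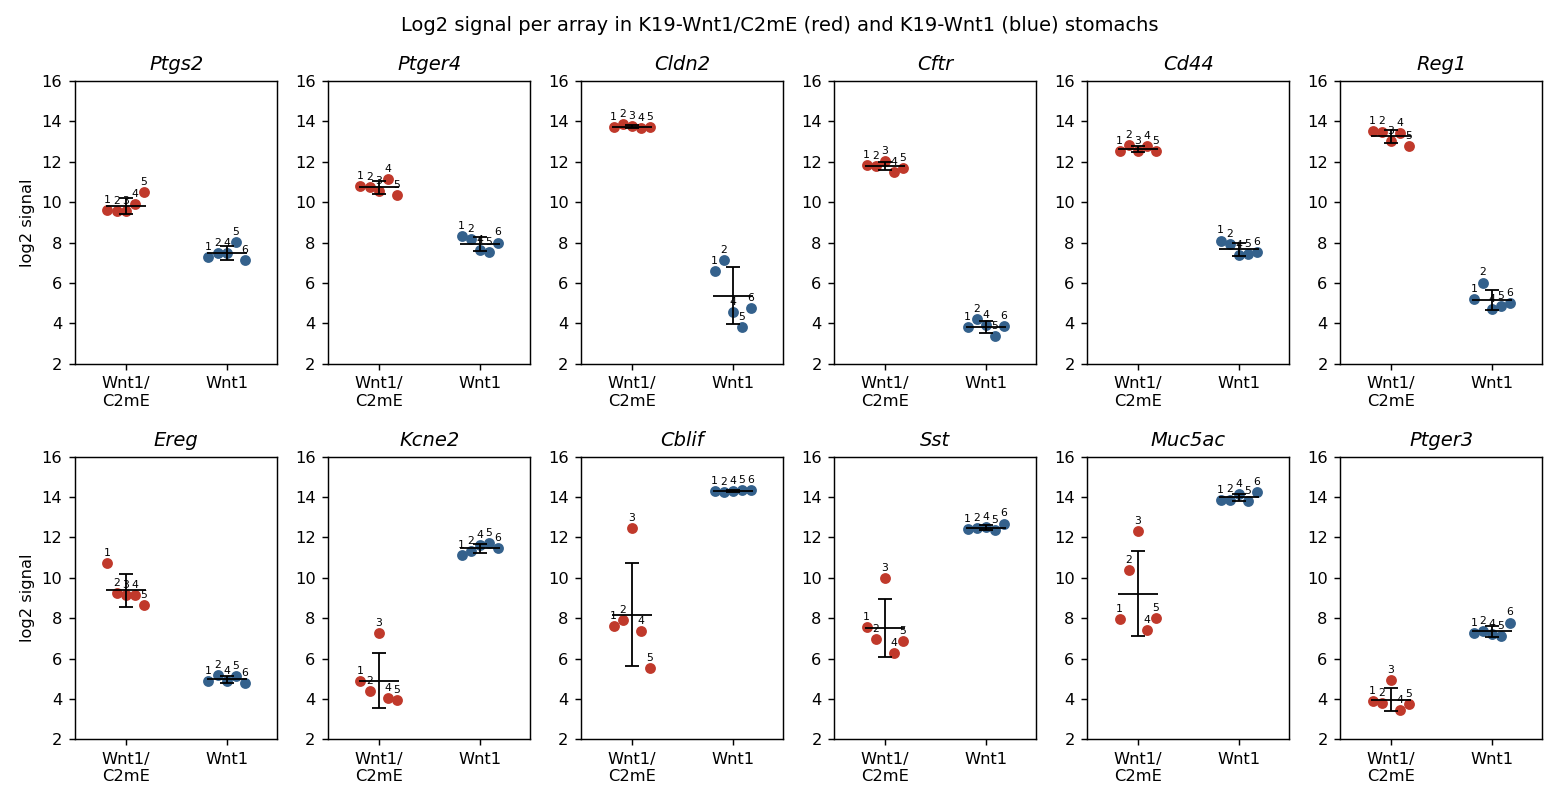
Log2 signal of 12 genes in each K19-Wnt1/C2mE array (red, left) and K19-Wnt1 array (blue, right), labelled with the array number; bars give the mean and SD of 5 arrays. Ptgs2, Ptger4, Cldn2, Cftr, Cd44, Reg1 and Ereg lie higher in every K19-Wnt1/C2mE array, and Kcne2, Cblif, Sst, Muc5ac and Ptger3 lower, with array 3 the highest of its genotype for those 5 genes.

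The list with the highest median difference was that of mucous neck cells and of spasmolytic polypeptide-expressing metaplasia (SPEM), the mucous lineage that replaces acid-secreting glands after injury. Of 16 measured genes 14 rose, none fell and 2 did not pass, with a median difference of 2.73. Tff2, the spasmolytic polypeptide itself, was near the top of the signal range in both genotypes, at 14.7, 14.86, 14.87, 14.8 and 14.83 in K19-Wnt1/C2mE, against 14.27, 14.02, 14.08, 14.13 and 13.95 in K19-Wnt1 (difference 0.72, SE 0.07, adjusted p = 2.47e-07). Wfdc2, a secreted protease-inhibitor-like protein widely used as a SPEM marker, was 11.22, 12.1, 11.49, 11.03 and 11.87 in K19-Wnt1/C2mE, against 8.24, 8.29, 8.08, 8.13 and 7.81 in K19-Wnt1, a rise of 3.43 (SE 0.29, adjusted p = 1.51e-08). Cd44, the hyaluronan receptor, was 12.53, 12.81, 12.54, 12.77 and 12.55 in K19-Wnt1/C2mE, against 8.1, 7.94, 7.36, 7.43 and 7.51 in K19-Wnt1, which is 31.4-fold (difference 4.97, SE 0.25, adjusted p = 3e-11). Neither gene had a K19-Wnt1/C2mE array near the K19-Wnt1 range. Cftr, the chloride channel, rose by 7.94 (SE 0.4), the membrane mucin Muc4 by 5.91 (SE 0.44) and Pigr, which carries IgA across the epithelium, by 6.42 (SE 0.42). Smaller rises were those of the antioxidant enzyme Gpx2 (2.81), the progenitor transcription factor Sox9 (1.61) and Agr2, needed to fold mucins (1.46), with adjusted p between 9.3e-10 and 6.69e-06.

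The single largest rise of all genes was in a tight junction protein. Cldn2, which forms a cation-permeable pore, had signals of 13.7, 13.85, 13.77, 13.67 and 13.71 in K19-Wnt1/C2mE, against 6.57, 7.15, 4.55, 3.82 and 4.76 in K19-Wnt1 (difference 8.37, SE 0.68, adjusted p = 9.91e-09). K19-Wnt1/C2mE arrays lay within a narrow band, and the K19-Wnt1 arrays 1 and 2 were the higher ones of theirs. Of 19 measured claudin and tight junction genes 6 rose, 2 fell and 11 did not pass, with a median of -0.02. Cldn7 was 12.13, 12.31, 12.04, 12.27 and 11.85 in K19-Wnt1/C2mE, against 6.67, 6.77, 6.33, 6.4 and 6.47 in K19-Wnt1, a rise of 5.59 (SE 0.36, adjusted p = 4.52e-10), and Cldn23 rose by 2.9. Cldn8, which seals the paracellular path to sodium, averaged 4.17 ± 0.30 in K19-Wnt1/C2mE and 8.05 ± 0.17 in K19-Wnt1 (SD, n = 5 each, difference -3.88, adjusted p = 2.41e-10). Cldn18, the stomach claudin, differed by -0.16 (adjusted p = 0.231) and Cldn1 by 0.36 (adjusted p = 0.0885).

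Genes of ion transport changed as well. Of 28 measured channels and solute carriers of secretory epithelium, 13 rose, 8 fell and 7 did not pass. Kcne3, a potassium channel subunit that works with chloride secretion, was 11.72, 12.21, 12.49, 12.41 and 11.53 in K19-Wnt1/C2mE, against 7.64, 6.82, 5.55, 5.07 and 4.64 in K19-Wnt1 (difference 6.13, SE 0.6, adjusted p = 1.43e-07). The water channel Aqp1 rose by 4.48 and the amino acid carrier Slc6a14 by 3.25, while Slc16a7, a monocarboxylate carrier, fell by 3.89 on the log2 scale (adjusted p from 9.46e-09 to 3.46e-07). Among the 12 largest rises of all genes were also Dmkn (dermokine, 7.42), Wfdc18 (6.99) and the proton channel gene Otop3, whose signals of 11.37, 11.4, 10.81, 11.24 and 11.07 in K19-Wnt1/C2mE, against 5.36, 5.28, 5.02, 4.52 and 4.74 in K19-Wnt1 differed by 6.19 (SE 0.31, adjusted p = 2.89e-11).

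The genes with the smallest p were less extreme but very even among arrays. Epcam, the epithelial adhesion molecule, was 13.25, 13.29, 13.09, 13.23 and 13.19 in K19-Wnt1/C2mE, against 10.8, 10.61, 10.67, 10.67 and 10.59 in K19-Wnt1 (difference 2.54, SE 0.09, adjusted p = 1.98e-12). Nat8f1, an acetyltransferase gene, averaged 6.25 ± 0.10 in K19-Wnt1/C2mE and 8.49 ± 0.12 in K19-Wnt1 (SD, n = 5 each, difference -2.24, SE 0.08, adjusted p = 1.98e-12). Sdc1, the epithelial syndecan, rose by 1.73, and B4galnt2, a glycosyltransferase, Necab1, a calcium-binding protein, and Sostdc1, a secreted antagonist of BMP and Wnt, differed by -4.89, -3.16 and -4.03 (adjusted p from 3.49e-12 to 6.89e-12).

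Genes of acid-secreting parietal cells were lower almost without exception. Of 17 measured genes 16 fell and 1 rose, with a median difference of -2.59. Atp4a, the catalytic subunit of the gastric proton pump, had signals of 8.68, 8.93, 12.48, 8.61 and 8.07 in K19-Wnt1/C2mE, against 14.4, 14.38, 14.54, 14.59 and 14.57 in K19-Wnt1 (difference -5.14, SE 0.85, adjusted p = 8.12e-05). Its partner Atp4b had 8.38, 8.52, 12.27, 7.49 and 7.73 in K19-Wnt1/C2mE, against 14.71, 14.75, 14.75, 14.72 and 14.72 in K19-Wnt1. In both genes array 3 lay well above the other K19-Wnt1/C2mE arrays and still below every K19-Wnt1 array. Kcne2, the accessory subunit of a potassium channel of the acid-secreting cell, was 4.91, 4.41, 7.27, 4.03 and 3.95 in K19-Wnt1/C2mE, against 11.12, 11.31, 11.62, 11.74 and 11.49 in K19-Wnt1 (difference -6.54, SE 0.64, adjusted p = 1.37e-07). The nuclear receptor Esrrg (-5.88) and the potassium channel Kcnj16 (-5.66) followed. The parietal gene that rose was Chrm3, the muscarinic receptor for acetylcholine, by 0.42 (SE 0.15, adjusted p = 0.0387) with overlapping arrays, and 11 of 21 alternatives kept that call, with adjusted p from 0.0108 to 0.575. It was lost without K19-Wnt1/C2mE array 1, 4 or 5 or K19-Wnt1 array 2, 5 or 6.

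Chief cells, which make digestive enzymes, gave a similar picture with an exception. Of 10 measured genes 6 fell, 1 rose and 3 did not pass, with a median of -1.96. Cblif, the gastric intrinsic factor, was 7.61, 7.91, 12.48, 7.38 and 5.55 in K19-Wnt1/C2mE, against 14.28, 14.24, 14.3, 14.33 and 14.36 in K19-Wnt1, with an SD of 2.57 against 0.05 (difference -6.12, SE 0.95, adjusted p = 3.84e-05). Pgc, pepsinogen C, was 10.16, 10.03, 13.66, 10.14 and 10.08 in K19-Wnt1/C2mE, against 14.85, 14.89, 15.01, 14.83 and 15.02 in K19-Wnt1, and the acidic chitinase Chia1 was 8.72, 8.55, 14.01, 9.73 and 6.31 in K19-Wnt1/C2mE, against 14.81, 14.75, 14.76, 14.84 and 14.83 in K19-Wnt1. Array 3 was again the highest of its genotype in all of these. The gene that rose was Cym, chymosin, the milk-clotting protease of young animals, with 13.14, 12.88, 13.41, 11.53 and 12.97 in K19-Wnt1/C2mE, against 8.15, 8.68, 5.07, 6.04 and 6.06 in K19-Wnt1 (difference 5.99, SE 0.74, adjusted p = 2.71e-06). Tmed6, a secretory pathway protein, fell by 6.01 on the log2 scale and Pdia2, a protein disulfide isomerase, by 6.86, the largest fall of all genes (adjusted p = 3.54e-06). In Pdia2, array 3 had 10.85 and the others 6.77, 6.26, 6.04 and 5.12, against 13.8, 13.89, 13.86, 13.94 and 13.87 in K19-Wnt1.

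Further genes with the largest falls and non-overlapping arrays were the cholecystokinin receptor Cckar (-6.37), the fatty acid carrier Fabp3 (-6.22), the membrane glycoprotein Gpm6a (-5.93), the apolipoprotein Apoa1 (-5.89) and the lipase-related Pnliprp2 (-5.82). Digestive genes best known from pancreatic acinar cells moved likewise. Of 10 measured genes 7 fell, 1 rose and 2 did not pass. Pnliprp1, a lipase-related protein, fell by 5.08 on the log2 scale, the bile salt-dependent lipase Cel by 3.32 and colipase, Clps, by 3.4, with array 3 at 14.63 and the other K19-Wnt1/C2mE arrays at 11.11, 11.12, 11.26 and 10.1, against 15.04, 15.04, 15.04, 15.07 and 15.02 in K19-Wnt1. Cela1, an elastase, was the member that rose (2.48, adjusted p = 2.52e-07).

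**Figure D3:**
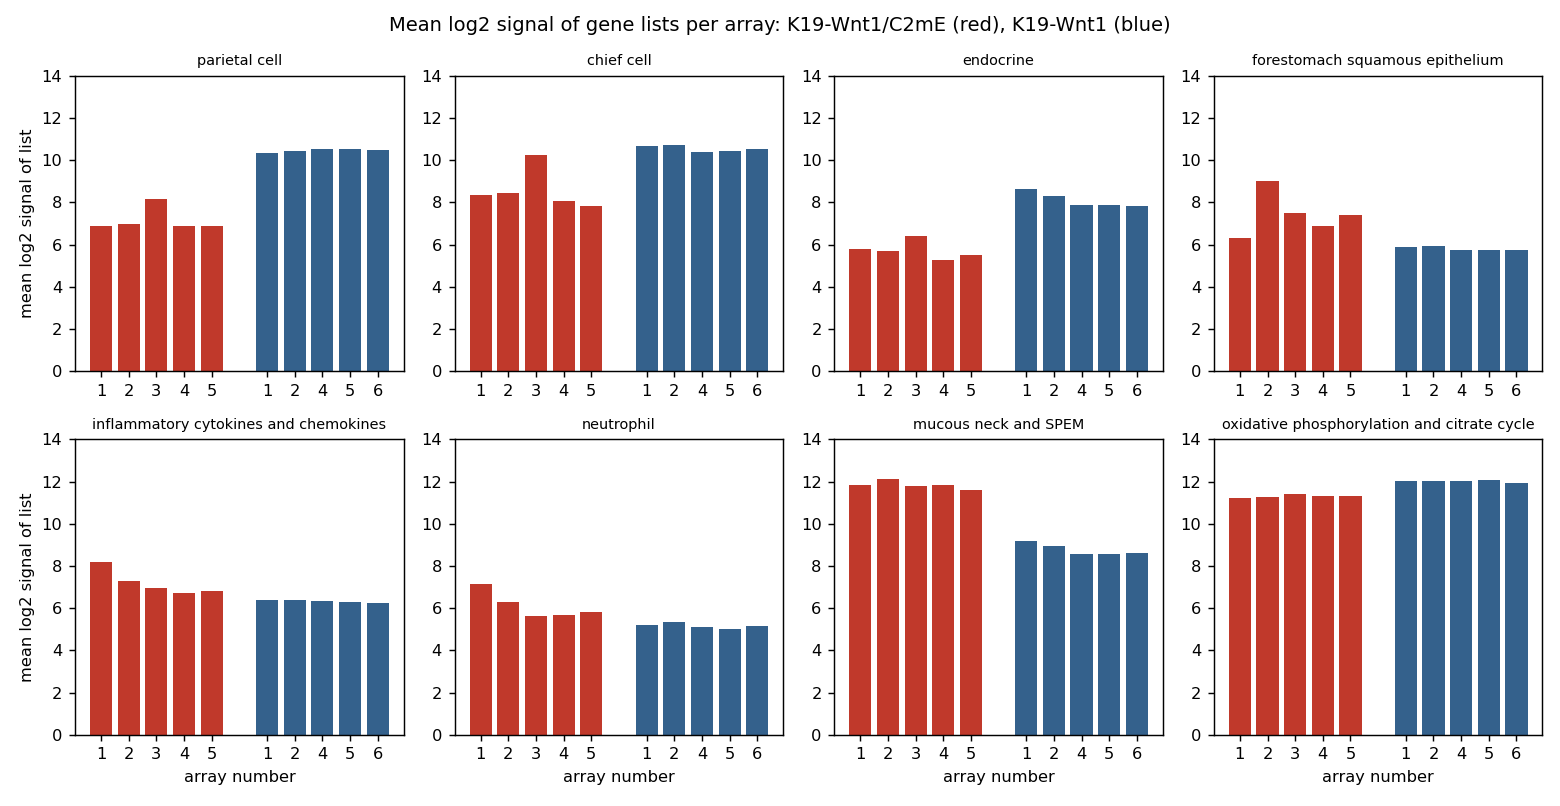
Mean log2 signal of 8 gene lists in each K19-Wnt1/C2mE array (red, left) and K19-Wnt1 array (blue, right), labelled with the array number; bars start at 0. The parietal mean is 8.18 in K19-Wnt1/C2mE array 3 and 6.87 to 6.96 in the other K19-Wnt1/C2mE arrays, against 10.34 to 10.54 in K19-Wnt1.

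Surface mucous (foveolar) genes divided. Of 14 measured genes 8 fell, 3 rose and 3 did not pass, with a median of -0.17. Muc5ac, the main gel-forming mucin of the gastric surface, was 7.98, 10.38, 12.34, 7.4 and 8.02 in K19-Wnt1/C2mE, against 13.86, 13.88, 14.14, 13.81 and 14.23 in K19-Wnt1 (difference -4.76, SE 0.75, adjusted p = 4.66e-05). Array 3 was the highest and array 2 the next, and both were below every K19-Wnt1 array. The surface antigen Psca fell by 2.16 on the log2 scale and the protease Capn9 by 3.95. By contrast Tff1 differed by 0.06 (adjusted p = 0.305) and Gkn1 by -0.18 (adjusted p = 0.0129), both at the upper end of the signal range in every array. Krt20, a keratin of mature surface cells, rose by 1.76 (adjusted p = 4.46e-05) and the membrane mucin Muc1 by 0.53 (adjusted p = 6.59e-05).

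Genes of hormone-producing cells were lower nearly throughout, with 17 of 20 measured endocrine genes lower, none higher and a median of -2.13. Ghrl, ghrelin, was 10.27, 9.63, 12.34, 7.43 and 8.68 in K19-Wnt1/C2mE, against 13.91, 13.82, 13.77, 13.93 and 13.85 in K19-Wnt1 (difference -4.18, SE 0.79, adjusted p = 0.000308). Sst, somatostatin, was 7.56, 6.95, 9.99, 6.28 and 6.87 in K19-Wnt1/C2mE, against 12.43, 12.45, 12.5, 12.37 and 12.69 in K19-Wnt1 (difference -4.96, SE 0.51, adjusted p = 2.68e-07). Chga, the granule protein chromogranin A, fell by 4.98 on the log2 scale, Scg5, a chaperone of prohormone processing, by 4.29, and Hdc, which makes histamine, by 2.27. Gast, gastrin, was different, since it was 5.13, 5.2, 4.95, 4.92 and 4.97 in K19-Wnt1/C2mE, against 12.84, 11.34, 5.44, 5.34 and 5.48 in K19-Wnt1. The difference of -3.06 (SE 1.12, adjusted p = 0.0383) rested on K19-Wnt1 arrays 1 and 2, and it was -0.39 (adjusted p = 0.519) without both of them. Over the alternatives its adjusted p ran from 0.00625 to 0.519, and 7 of 21 kept the call. Leaving out any K19-Wnt1/C2mE array or K19-Wnt1 array 1 or 2 lost it, and without K19-Wnt1 array 1 the difference was -1.87.

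Secreted defence proteins rose strongly. Of 21 measured Reg and antimicrobial genes 12 rose, none fell and 9 did not pass, with a median of 2.32. Reg1, a regenerating-family lectin linked to gastric growth, was 13.53, 13.5, 13.02, 13.44 and 12.8 in K19-Wnt1/C2mE, against 5.21, 6.02, 4.72, 4.85 and 4.99 in K19-Wnt1 (difference 8.10, SE 0.79, adjusted p = 1.19e-07). Reg3b rose by 6.56 and Reg3g by 5.54, both lectins that bind bacteria, and in both arrays 4 and 5 were the lowest of K19-Wnt1/C2mE. Ltf, the iron-binding lactoferrin, was 12.56, 13.77, 12.66, 13.85 and 13.41 in K19-Wnt1/C2mE, against 6.41, 6.36, 5.95, 6.52 and 5.56 in K19-Wnt1 (difference 7.09, SE 0.78, adjusted p = 5.99e-07). Near-identical members of such families can share probes, so single members are uncertain.

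The EGF receptor system moved mostly upward, with 10 of 14 measured genes higher, 1 lower and 3 not passing (median 0.63). Among the ligands, Ereg, epiregulin, was 10.74, 9.25, 9.13, 9.13 and 8.64 in K19-Wnt1/C2mE, against 4.9, 5.18, 4.88, 5.15 and 4.78 in K19-Wnt1 (difference 4.40, SE 0.42, adjusted p = 8.64e-08). Hbegf rose by 1.48 and Nrg4, a ligand of the ErbB family, by 1.69. Egf itself was the member that fell, with 4.81, 4.86, 5.22, 4.52 and 4.74 in K19-Wnt1/C2mE, against 8.01, 7.14, 8.5, 8.91 and 8.79 in K19-Wnt1 (difference -3.44, SE 0.24, adjusted p = 1.12e-09). Among the receptors Erbb3 rose by 1.07 (adjusted p = 4.05e-08) and Erbb2 by 0.36 (adjusted p = 0.00237). Errfi1, a feedback inhibitor of the receptor, rose by 1.28 (SE 0.12, adjusted p = 1.22e-07).

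Inflammatory signals rose, and unevenly. Of 40 measured cytokines, chemokines and related genes 17 rose, 4 fell and 19 did not pass, with a median of 0.68. Il1b, interleukin-1 beta, was 10.47, 7.53, 7.17, 6.89 and 6.85 in K19-Wnt1/C2mE, against 5.87, 6.02, 6.1, 6.16 and 6.1 in K19-Wnt1. All K19-Wnt1/C2mE arrays were above the K19-Wnt1 range, but array 1 stood far above the others, and the difference of 1.73 (SE 0.51, adjusted p = 0.0113) was 1.06 (adjusted p = 0.00791, range over its alternatives 0.00698 to 0.363) without it. The neutrophil chemokine Cxcl2 was 9.87, 8.15, 6.68, 4.31 and 4.63 in K19-Wnt1/C2mE, against 4.09, 3.81, 3.97, 4.39 and 3.86 in K19-Wnt1, with array 4 inside the K19-Wnt1 range, and its difference of 2.70 (adjusted p = 0.0168) was lost without array 1 (1.92, adjusted p = 0.0523, range over its alternatives 0.00395 to 0.307). Cxcl1 (1.89, adjusted p = 0.00558) and Cxcl3 (2.79, adjusted p = 0.0148) were also highest in array 1. Cxcl5, also a neutrophil attractant, was more even at 9.59, 10.16, 8.0, 9.86 and 8.63 in K19-Wnt1/C2mE, against 4.36, 3.96, 3.95, 4.34 and 4.19 in K19-Wnt1 (difference 5.09, SE 0.67, adjusted p = 6.11e-06). Il1rn, the interleukin-1 receptor antagonist, rose by 2.97 (SE 0.25, adjusted p = 2.21e-08), while the stromal chemokine Cxcl12 fell by 1.21 on the log2 scale (adjusted p = 5.86e-06).

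Markers of macrophages, neutrophils and T cells rose in shares near or below the 22.3% of all genes. Among 19 macrophage genes 5 (26.3%) rose and none fell, a count that ran from 3 (without K19-Wnt1/C2mE array 1 or 5 or K19-Wnt1 array 4, 5 or 6) to 8 (without K19-Wnt1/C2mE array 2). Cd14, the coreceptor for bacterial lipopolysaccharide, rose by 3.67 (adjusted p = 6.34e-08) and Cd68 by 1.09 (adjusted p = 0.00029), but the defining receptors Csf1r (-0.09, adjusted p = 0.775) and Adgre1 (-0.01, adjusted p = 0.976) did not pass, with 95% intervals of -0.51 to 0.34 and -0.43 to 0.41. Of 10 neutrophil genes 2 (20%) rose, 2 fell and 6 did not pass. Those that rose were the calprotectin subunits S100a8 and S100a9. S100a8 was 11.2, 9.33, 6.66, 7.81 and 7.62 in K19-Wnt1/C2mE, against 4.22, 4.52, 4.38, 3.97 and 4.55 in K19-Wnt1 (difference 4.19, SE 0.84, adjusted p = 0.00053), and both genes are also made by squamous epithelium. K19-Wnt1/C2mE array 1, the highest for S100a8, had the lowest median squamous signal of its genotype (6.09), and array 2, the next, had the highest (9.31). The part of squamous tissue in this rise was not tested.

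Of 12 B and plasma cell genes 5 rose, 1 fell and 6 did not pass. Jchain, the joining chain of secreted antibodies, was 12.87, 12.25, 10.9, 11.87 and 13.04 in K19-Wnt1/C2mE, against 8.07, 9.58, 6.57, 6.89 and 7.41 in K19-Wnt1 (difference 4.48, SE 0.55, adjusted p = 2.14e-06). The B cell coactivator Pou2af1 rose by 3.92 and Mzb1, a plasma cell chaperone, by 1.85. Ighm, the IgM heavy chain, rose by 4.0 with array 2 at 7.81, below 11.79, 11.15, 12.37 and 11.42 in the other K19-Wnt1/C2mE arrays. Its other probe sets differed less, from -0.06 (adjusted p = 0.704) to 2.61 (adjusted p = 0.00712), and several did not pass. The B cell surface markers Cd79a (0.24, adjusted p = 0.212) and Ms4a1 (0.15, adjusted p = 0.369) did not pass. Of 12 mast cell genes 4 rose, or 7 without K19-Wnt1/C2mE array 2, 2 fell and 6 did not pass. The mucosal proteases Mcpt1 (2.69) and Mcpt2 rose, Mcpt2 with 11.96, 11.48, 11.73, 10.99 and 11.17 in K19-Wnt1/C2mE, against 9.03, 9.02, 7.95, 7.84 and 8.15 in K19-Wnt1 (difference 3.07, SE 0.26, adjusted p = 1.72e-08). Mcpt4 rose by 1.63, while Kit, the mast cell growth factor receptor, differed by -0.21 (adjusted p = 0.452). Of 14 T cell genes 2 (14.3%) rose, 1 fell and 11 did not pass, among them Cd3e (-0.19, adjusted p = 0.0768), Cd3g (0.38, adjusted p = 0.209) and Cd8a (-0.12, adjusted p = 0.186). Of 6 red blood cell genes 1 rose and 5 did not pass.

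Against this rise of inflammatory genes, the interferon response was lower. Interferons act through Stat and Irf factors on antiviral genes and on the machinery of antigen presentation. Of 28 measured genes of both kinds 11 fell, 1 rose and 16 did not pass, with a median of -0.48. Ifit1, which blocks translation of viral RNA, was 4.58, 4.66, 5.17, 5.58 and 5.63 in K19-Wnt1/C2mE, against 8.43, 8.78, 8.6, 8.41 and 7.13 in K19-Wnt1 (difference -3.14, SE 0.34, adjusted p = 5.09e-07). K19-Wnt1 array 6, the one without Y-linked signal, was the lowest of its genotype and still above every K19-Wnt1/C2mE array. Oas2, an activator of RNA degradation, was 7.06, 7.2, 7.1, 7.5 and 7.21 in K19-Wnt1/C2mE, against 9.25, 9.55, 9.09, 9.51 and 8.81 in K19-Wnt1 (difference -2.03, SE 0.16, adjusted p = 7.29e-09). Ddx60, a helicase of the antiviral response, was 5.04, 5.43, 4.85, 5.42 and 5.09 in K19-Wnt1/C2mE, against 8.6, 8.94, 8.71, 8.56 and 7.92 in K19-Wnt1 (difference -3.38, SE 0.22, adjusted p = 4.38e-10). The other antiviral genes named here were Usp18, the enzyme that removes the ubiquitin-like ISG15 (-2.47), Oasl2 (-1.63) and Ifit1bl1 (-1.84), of which Ifit1bl1 had overlapping arrays. Array 6 was the lowest of the K19-Wnt1 arrays for all 6 genes. Of them, Ddx60, Usp18, Oasl2 and Ifit1bl1 are not among the 28 genes counted above.

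The genes that respond best to interferon gamma were more variable. Gbp2, a guanylate-binding protein, was 6.69, 6.48, 6.23, 6.69 and 6.64 in K19-Wnt1/C2mE, against 9.97, 8.4, 8.11, 8.11 and 7.91 in K19-Wnt1 (difference -1.96, SE 0.53, adjusted p = 0.00661). Igtp, an interferon-inducible GTPase, was 7.92, 7.98, 7.88, 8.03 and 8.04 in K19-Wnt1/C2mE, against 11.2, 9.66, 9.32, 9.45 and 8.78 in K19-Wnt1 (difference -1.71, SE 0.48, adjusted p = 0.00858). K19-Wnt1 array 1 was the highest for both, and the arrays did not overlap. Without K19-Wnt1 arrays 1 and 2 together the differences were -1.5 (adjusted p = 0.0576) and -1.21 (adjusted p = 0.0764), and over all alternatives the adjusted p ran from 0.000483 to 0.521 for Gbp2 and from 0.00184 to 0.671 for Igtp. B2m, the light chain of class I molecules, differed by -0.55 (SE 0.16, adjusted p = 0.0119), and the class I genes H2-K1 (-0.02, adjusted p = 0.94) and H2-D1 (0.24, adjusted p = 0.0539) did not pass with their brightest probe sets. Of their other probe sets, 2 for H2-D1 were lower (-0.61, adjusted p = 3.91e-06, and -0.27, adjusted p = 0.00927) and 1 for H2-K1 was higher (0.59, adjusted p = 0.0269), and class I genes are alike enough to share probes. Psmb10, an immunoproteasome subunit, was the member that rose (0.71, adjusted p = 0.0162).

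The promoters of these genes were searched for the core of the interferon-stimulated response element, GAAANNGAAA, on both strands, in the 300 bases from 250 before to 50 after the start site of each gene in RefSeq (build GRCm38.p6). Over all promoters 1131 of 32851 (3.44%) hold it. Of the 28 measured interferon and antigen presentation genes 20 have an entry, and 8 of these hold the motif. Of the 11 that fell 9 have an entry and 7 hold it, while of the 10 with an entry that did not pass 1 holds it. These counts describe genes chosen with earlier results known and carry no test. The promoters of 4 genes that fell and hold the motif are shown as examples. Each is on the plus strand and 5′ to 3′, with the motif in capitals on whichever strand it matched. Ddx60 is not among the 28 genes counted, and the genes that fell without the motif are not shown. In Ifit1 (chr19:34640639-34640938) the matches lie 104 and 85 bases before the start on the reverse strand, in Ddx60 (chr8:61927837-61928136) 53 and 19 bases before it on the forward strand, in Gbp2 (chr3:142620413-142620712) 59 bases before it on the reverse strand, and in Igtp (chr11:58199306-58199605) 34 bases before it on the forward strand. A match is a description of the letters and does not show binding.
Ifit1: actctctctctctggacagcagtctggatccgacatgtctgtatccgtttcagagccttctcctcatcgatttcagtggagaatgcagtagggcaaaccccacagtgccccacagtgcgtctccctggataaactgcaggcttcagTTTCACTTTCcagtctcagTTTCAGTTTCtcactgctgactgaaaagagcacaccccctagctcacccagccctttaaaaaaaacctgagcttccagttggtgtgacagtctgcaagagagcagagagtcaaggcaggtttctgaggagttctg
Ddx60: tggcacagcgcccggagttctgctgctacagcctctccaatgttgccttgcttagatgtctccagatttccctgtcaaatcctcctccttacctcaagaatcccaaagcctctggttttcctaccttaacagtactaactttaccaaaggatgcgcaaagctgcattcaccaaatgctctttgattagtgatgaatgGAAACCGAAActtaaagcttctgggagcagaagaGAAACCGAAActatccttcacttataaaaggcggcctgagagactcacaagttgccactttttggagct
Gbp2: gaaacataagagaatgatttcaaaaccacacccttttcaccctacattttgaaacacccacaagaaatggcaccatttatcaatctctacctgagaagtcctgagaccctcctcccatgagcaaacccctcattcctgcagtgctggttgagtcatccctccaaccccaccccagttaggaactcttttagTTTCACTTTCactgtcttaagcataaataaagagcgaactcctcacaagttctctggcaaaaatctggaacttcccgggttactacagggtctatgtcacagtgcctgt
Igtp: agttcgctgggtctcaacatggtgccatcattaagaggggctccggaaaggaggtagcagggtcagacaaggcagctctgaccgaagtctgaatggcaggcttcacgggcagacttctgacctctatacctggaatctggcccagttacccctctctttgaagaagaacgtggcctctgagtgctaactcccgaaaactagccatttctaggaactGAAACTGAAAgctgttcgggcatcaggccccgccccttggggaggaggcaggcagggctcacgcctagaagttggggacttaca

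The C2mE effect on these antiviral genes differed from that in both other backgrounds. Both tests use the same 10 arrays with Wnt1. For Ifit1 the C2mE effect was -3.14 with Wnt1, 0.87 (adjusted p = 0.178) without it and -0.07 (adjusted p = 0.95) with noggin. The difference of effects was -4.01 (SE 0.56, adjusted p = 0.00228) against K19-C2mE minus wild-type and -3.07 (adjusted p = 0.00732) against K19-Nog/C2mE minus K19-Nog. For Ddx60 these differences were -3.89 (adjusted p = 4.56e-05) and -3.47 (adjusted p = 4.74e-05), and for Oas2 -2.39 (adjusted p = 0.000484) and -1.86 (adjusted p = 0.000985). Usp18, Oasl2 and Ifit1bl1 also passed both tests, with differences from -2.45 to -3.96. With the squamous signal as a covariate Ifit1bl1 lost its call in the difference from the effect without Wnt1 (-3.44, adjusted p = 0.0753, range over the alternatives 0.00323 to 0.979), and the other 5 genes kept both. Over all 18193 genes, 118 (0.649%) had a lower C2mE effect with Wnt1 than without it and 255 (1.4%) a lower one with Wnt1 than with noggin. Of the 28 listed interferon and antigen presentation genes 5 had a lower effect with Wnt1 than without it and 4 than with noggin. None had a higher one. Ddx60, Usp18, Oasl2 and Ifit1bl1 are not among these 28. Genes were named also for having the largest differences of effects, so the passing of these genes is no separate support. Ifit1 was 8.58, 7.43 and 7.65 in K19-C2mE and 7.39, 7.5 and 6.17 in wild-type, and 6.22, 6.92 and 7.32 in K19-Nog/C2mE and 7.29 and 6.49 in K19-Nog. For Ifit1 no array of these 4 genotypes was as low as any K19-Wnt1/C2mE array. The K19-Wnt1 arrays were also high. For Ifit1 and Ddx60 all of them but array 6 lay above every wild-type and K19-Nog array. For Oas2 all of them did. The K19-Wnt1 level thus enters these differences of effects as well. With the Y-linked signal in each array as a covariate all 6 genes kept the call in the main comparison and in both differences. Without the arrays with Y-linked signal 4 of 6 kept it in the main comparison, where Oasl2 (-0.77, adjusted p = 0.418, range over its alternatives 2.95e-05 to 0.418) and Ifit1bl1 (-0.68, adjusted p = 0.641, range 0.000139 to 0.641) did not, and 1 of 6 (Ddx60) in each difference. The differences of effects of the 6 genes were then -4.19 to -2.31 against the background without Wnt1 and -2.82 to -1.42 against noggin, with a single K19-Wnt1 array. The background without Wnt1 then also held only a single wild-type and a single K19-C2mE array. The part of the Y-linked signal in these results beyond these values was not tested.

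**Figure D4:**
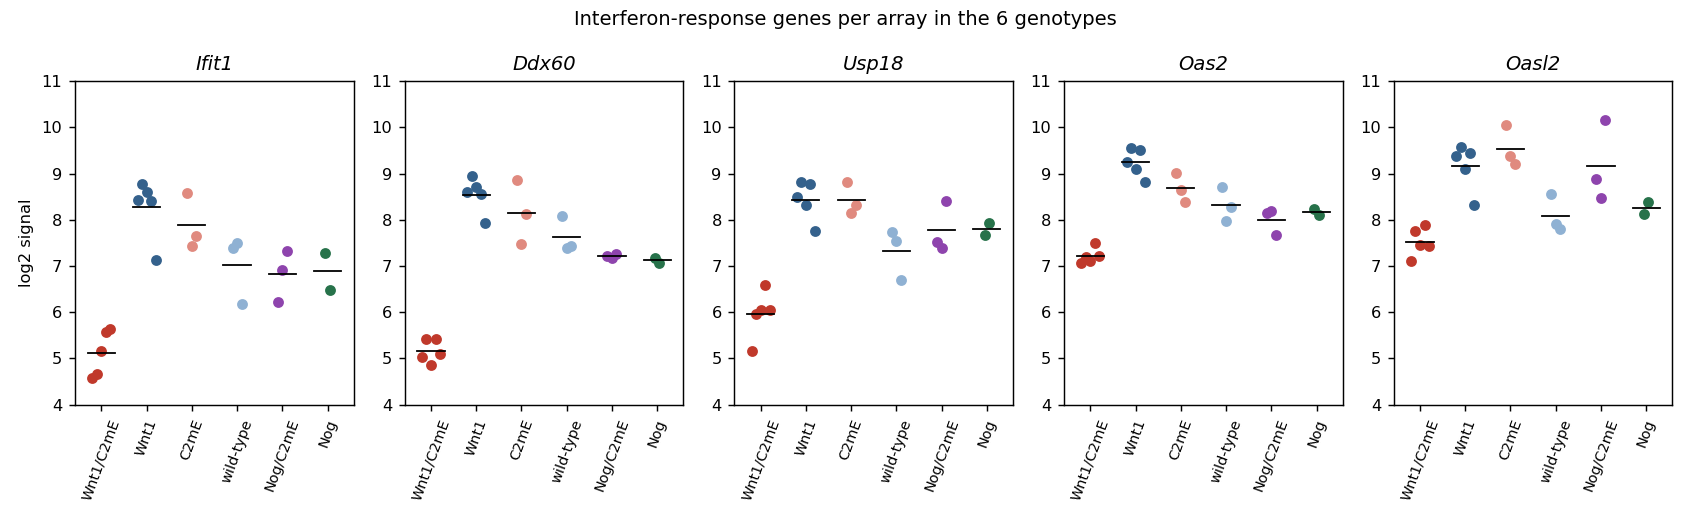
Log2 signal of 5 interferon-response genes in every array of the 6 genotypes, with points for single arrays and lines for genotype means. K19-Wnt1/C2mE arrays lie below every other array except for Oasl2, where array 4 (7.89) is above 1 wild-type array (7.81).

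Oxidative metabolism was lower across the board. Of 54 measured genes of oxidative phosphorylation and the citrate cycle 49 fell, 1 rose and 4 did not pass, with a median of -0.57. Single changes were mostly small and very even. Ndufs1, a core subunit of complex I, was 10.1, 10.21, 10.44, 10.27 and 10.38 in K19-Wnt1/C2mE, against 11.23, 11.27, 11.3, 11.41 and 11.21 in K19-Wnt1 (difference -1.0, SE 0.07, adjusted p = 2.56e-09). Cox4i1, of cytochrome oxidase, differed by -0.60 (SE 0.06, adjusted p = 7.67e-08), Cox5a by -0.44 and Ndufa4 by -1.48. Cox7a1, an oxidase subunit typical of muscle, fell most, with 4.8, 4.57, 6.76, 4.41 and 4.48 in K19-Wnt1/C2mE, against 10.55, 10.48, 10.46, 10.77 and 10.27 in K19-Wnt1 (difference -5.50, SE 0.48, adjusted p = 2.46e-08). Ckb, the brain-type creatine kinase, which regenerates ATP, fell by 3.78 on the log2 scale. The member that rose was Cox7c (0.41, adjusted p = 0.00135). Parietal cells are rich in mitochondria, and the list mean of the oxidative genes was highest in the array with the most parietal signal, at 11.41 in K19-Wnt1/C2mE array 3 and 11.24 to 11.34 in the others, against 11.94 to 12.07 in K19-Wnt1. The part of the parietal cell signal in this fall was not tested.

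Of 23 measured genes of fatty acid oxidation and ketone metabolism 17 fell, none rose and 6 did not pass (median -0.51). Oxct1, which lets tissue burn ketone bodies, was 9.3, 9.57, 10.34, 10.15 and 10.05 in K19-Wnt1/C2mE, against 12.71, 12.78, 13.07, 13.14 and 13.03 in K19-Wnt1 (difference -3.06, SE 0.19, adjusted p = 3.74e-10). The nuclear receptor Ppara fell by 1.85 on the log2 scale and Pdk4, which holds pyruvate back from oxidation, by 1.8 with overlapping arrays. Ppargc1a, the coactivator of mitochondrial genes, fell by 0.77 on the log2 scale (SE 0.19, adjusted p = 0.00346) with overlapping arrays, while beside noggin it fell by 2.71 (difference of effects 1.94, adjusted p = 0.00299). Glycolysis was mixed, with 3 of 19 genes higher, 6 lower and 10 not passing. Hexokinase Hk2 rose by 1.78 (adjusted p = 1.67e-05), the aldolase Aldoc by 2.31 and Slc16a3, which exports lactate, by 1.11. The other Aldoc probe set did not pass (0.04, adjusted p = 0.8). Ldhb, the lactate dehydrogenase of oxidative tissue, was 8.8, 9.78, 9.38, 9.46 and 9.93 in K19-Wnt1/C2mE, against 12.35, 12.42, 12.64, 12.55 and 12.41 in K19-Wnt1 (difference -3.0, SE 0.26, adjusted p = 2.35e-08), Pgam1 fell by 0.85 and Hk1 differed by -0.05 (adjusted p = 0.774). Of 23 genes of cholesterol and fatty acid synthesis 8 rose, 1 fell and 14 did not pass, Srebf1, the lipogenic transcription factor, by 0.88 and the desaturase Scd2 by 1.12. Of 36 genes of the secretory pathway and protein folding 8 (22.2%) rose, 7 (19.4%) fell and 21 did not pass, shares near those over all genes.

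Since both genotypes carried the Wnt1 transgene, the Wnt pathway was examined for changes that C2mE added. Of 25 measured Wnt target genes 10 rose, 5 fell and 10 did not pass (median 0.24), and of 40 ligands, receptors and transducers 16 rose, 7 fell and 17 did not pass (median 0.14). Axin2, the feedback inhibitor often used as a readout of the pathway, was 7.29, 7.55, 7.31, 8.04 and 7.74 in K19-Wnt1/C2mE, against 6.8, 6.77, 7.01, 7.15 and 7.05 in K19-Wnt1 (difference 0.63, SE 0.12, adjusted p = 0.000435). The genotypes did not overlap, and the C2mE effect on Axin2 was -0.29 (adjusted p = 0.209) without Wnt1 and -0.62 (adjusted p = 0.0159) beside noggin. The effect with Wnt1 exceeded these by 0.92 (adjusted p = 0.038) and 1.25 (adjusted p = 0.00296). The other Axin2 probe set did not pass in K19-Wnt1/C2mE against K19-Wnt1 (0.17, adjusted p = 0.186). Ascl2, a transcription factor of intestinal stem cells, was 7.42, 8.07, 7.64, 8.37 and 7.86 in K19-Wnt1/C2mE, against 6.31, 6.36, 6.0, 5.93 and 5.88 in K19-Wnt1 (difference 1.78, SE 0.16, adjusted p = 3.23e-08). Ephb3, which positions cells along crypts, was 10.47, 10.86, 10.68, 10.8 and 11.13 in K19-Wnt1/C2mE, against 8.84, 9.16, 9.28, 9.25 and 9.06 in K19-Wnt1 (difference 1.67, SE 0.12, adjusted p = 1.39e-09). Both had a larger C2mE effect with Wnt1 than without it, by 1.39 (adjusted p = 0.0154) for Ascl2 and 0.88 (adjusted p = 0.0357) for Ephb3, and than with noggin, by 1.27 (adjusted p = 0.0148) and 1.86 (adjusted p = 5.29e-05). These differences of effects were not followed gene by gene through the alternatives. With the squamous level as a covariate the probe sets that differed went from 311 to 57 against no Wnt1. Against noggin they went from 1355 to 762.

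Other target genes went the opposite way. Lgr5, a stem cell receptor for R-spondins, was 5.29, 5.29, 6.28, 5.4 and 5.43 in K19-Wnt1/C2mE, against 7.36, 7.26, 7.42, 7.4 and 7.42 in K19-Wnt1 (difference -1.84, SE 0.16, adjusted p = 1.99e-08), and Tnfrsf19 fell by 2.38 on the log2 scale. The protease Mmp7 differed by -0.04 (adjusted p = 0.85). Among ligands Wnt4 rose by 2.27 and Wnt5a by 1.49, and Porcn, the acyltransferase that readies Wnts for secretion, was 8.49, 8.73, 8.11, 8.37 and 8.21 in K19-Wnt1/C2mE, against 7.15, 7.27, 7.57, 7.19 and 7.54 in K19-Wnt1 (difference 1.04, SE 0.12, adjusted p = 6.97e-07). Its effect exceeded that beside noggin by 1.14 (adjusted p = 0.00382), and the excess over the effect without Wnt1 was 0.76 (adjusted p = 0.0697). The coreceptor Lrp5 rose by 1.49 and Ctnnb1, beta-catenin, by 0.63 (SE 0.06, adjusted p = 1.18e-07). Tcf3, which the paper names Tcfe2a and counts with the Wnt pathway, rose by 1.05. It is a different gene from the Tcf factors that act with beta-catenin. The receptor Fzd4 fell by 1.3 on the log2 scale and the secreted inhibitor Sfrp1 by 0.98.

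Of 34 measured genes of the BMP and TGF-beta pathways 12 rose, 10 fell and 12 did not pass (median -0.05). The ligand Bmp2 was 8.8, 8.63, 8.81, 8.54 and 8.69 in K19-Wnt1/C2mE, against 9.71, 9.66, 9.53, 9.74 and 9.76 in K19-Wnt1 (difference -0.99, SE 0.13, adjusted p = 6.85e-06), whereas the effect was 0.14 (adjusted p = 0.606) without Wnt1 and 0.3 (adjusted p = 0.318) with noggin. Both differences of effects passed, at -1.13 (adjusted p = 0.0199) and -1.28 (adjusted p = 0.00409). Here too the differences of effects were not followed gene by gene through the alternatives. Bmp4 fell by 0.84 on the log2 scale, and the receptor Bmpr1b was 5.08, 4.75, 5.33, 4.63 and 5.27 in K19-Wnt1/C2mE, against 7.94, 8.1, 8.09, 8.49 and 8.17 in K19-Wnt1 (difference -3.15, SE 0.2, adjusted p = 4.31e-10). On the TGF-beta side Tgfb1 rose by 1.32. Its receptor Tgfbr2 rose by 1.09, which was more than without Wnt1 by 0.73 (adjusted p = 0.0365) and more than with noggin by 0.79 (adjusted p = 0.0134). Smad3 rose by 0.52 and Tgfb3 fell by 0.77 on the log2 scale, where the difference from the effect with noggin was 0.85 (adjusted p = 0.0065). Fst, follistatin, which binds activins, was 10.12, 8.05, 8.5, 7.35 and 6.88 in K19-Wnt1/C2mE, against 5.41, 5.69, 5.37, 5.14 and 5.47 in K19-Wnt1 (difference 2.77, SE 0.58, adjusted p = 0.000871), and Inhbb, an activin subunit, rose by 1.77.

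Of 34 measured wound healing and matrix remodelling genes 22 rose, 2 fell and 10 did not pass, with a median of 1.17. Thbs1, thrombospondin, was 10.41, 9.25, 9.24, 10.06 and 10.07 in K19-Wnt1/C2mE, against 6.79, 6.92, 6.36, 6.99 and 6.98 in K19-Wnt1 (difference 3.0, SE 0.23, adjusted p = 5.57e-09). Anxa1, a lipid-binding protein of resolving inflammation, rose by 2.91 (adjusted p = 4.91e-10). The metalloproteinases Mmp10 and Mmp13 varied widely. Mmp13 was 8.98, 9.42, 7.44, 3.36 and 4.16 in K19-Wnt1/C2mE, against 3.6, 4.17, 4.13, 3.7 and 3.75 in K19-Wnt1, so that arrays 4 and 5 lay in or below the K19-Wnt1 range. Its difference of 2.80 (adjusted p = 0.0298) kept its call in 7 of 21 alternatives, with adjusted p from 0.00363 to 0.418, and lost it without K19-Wnt1/C2mE array 1, 2 or 3 (2.23, 2.12 and 2.61) or K19-Wnt1 array 1, 5 or 6. Mmp10 rose by 2.97 with 10.7, 10.51, 9.61, 6.53 and 7.57 in K19-Wnt1/C2mE, against 6.38, 6.08, 6.11, 6.05 and 5.45 in K19-Wnt1. Mmp11 was the lower of the matrix proteases named (difference -0.61, adjusted p = 0.000329) with overlapping arrays.

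Genes of the wall and stroma were counted by cell type. Of 18 smooth muscle genes 15 fell, none rose and 3 did not pass, with a median of -0.81. Myh11, the smooth muscle myosin, was 8.66, 8.04, 8.23, 8.69 and 9.22 in K19-Wnt1/C2mE, against 9.81, 9.37, 10.53, 9.7 and 9.85 in K19-Wnt1 (difference -1.28, SE 0.23, adjusted p = 0.000149). Its other probe set did not pass (-0.29, adjusted p = 0.121). Desmin, Des, fell by 1.05 on the log2 scale, Synm by 1.7 and Pln, which regulates calcium pumping, by 1.62, while Actg2, the enteric actin, differed by -0.70 (adjusted p = 0.0734). Of 26 fibroblast and collagen genes 9 (34.6%) rose, 6 (23.1%) fell and 11 did not pass, against 22.3% and 21.2% over all genes. Col18a1, a basement membrane collagen, was 10.6, 10.8, 10.88, 11.12 and 11.01 in K19-Wnt1/C2mE, against 8.49, 8.86, 8.83, 8.69 and 8.71 in K19-Wnt1 (difference 2.17, SE 0.17, adjusted p = 5.66e-09), and Col12a1 rose by 1.12. The main fibrillar collagens Col1a1 (0.27, adjusted p = 0.452) and Col1a2 (-0.05, adjusted p = 0.877) and the proteoglycan Dcn (-0.14, adjusted p = 0.52) did not pass, whereas Ogn fell by 1.11 and Mfap4 by 1.19 on the log2 scale. Of 15 endothelial genes 3 (20%) rose, 2 (13.3%) fell and 10 did not pass, shares below those over all genes. Vwf, the von Willebrand factor, rose by 2.06 and the angiopoietin receptor Tek by 1.6, and Pecam1 differed by 0.09 (adjusted p = 0.784). Of 20 enteric neuron and glia genes 8 fell, 2 rose and 10 did not pass. The count that fell was 5 without K19-Wnt1/C2mE array 2 or K19-Wnt1 array 4 and 4 without K19-Wnt1/C2mE array 4.

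Squamous genes, which mark the forestomach bordering the glandular stomach, were higher in K19-Wnt1/C2mE in 19 of 32 measured genes and lower in none, with a median of 1.58. Krt14, a keratin of basal squamous cells, was 5.59, 11, 7.93, 9.02 and 9.87 in K19-Wnt1/C2mE, against 5.24, 4.87, 4.84, 4.85 and 4.64 in K19-Wnt1 (difference 3.79, SE 0.65, adjusted p = 0.000118). Krt13 was 6.05, 12.17, 9.27, 10.12 and 10.37 in K19-Wnt1/C2mE, against 5.43, 4.9, 5.26, 5.28 and 5.09 in K19-Wnt1. In both genes array 1 was near the K19-Wnt1 range and array 2 far above it. Krt5 rose by 2.59 and Krt6b by 3.34, while Rptn, repetin of cornified layers, was 3.74, 10.73, 7.19, 5.35 and 6.22 in K19-Wnt1/C2mE, against 3.41, 3.31, 3.14, 3.32 and 3.28 in K19-Wnt1. The involucrin gene Ivl followed another order, 9.56, 8.52, 9.61, 5.42 and 6.79 in K19-Wnt1/C2mE, against 4.57, 4.78, 4.54, 4.73 and 4.67 in K19-Wnt1. How much squamous tissue each sample held is not given in the sources used here. With the median of this list in each array as a covariate, 187 of the 205 named genes that changed kept their call, 17 lost it and 1 (Rptn) changed sign.

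Proliferation genes rose in part, with 15 of 37 measured genes higher, 2 lower and 20 not passing (median 0.44). Mki67 was 9.79, 9.37, 10.15, 9.14 and 8.87 in K19-Wnt1/C2mE, against 9.51, 9.25, 9.1, 9.11 and 8.95 in K19-Wnt1, and its difference of 0.28 (adjusted p = 0.335) did not pass. Top2a rose by 0.88 (adjusted p = 0.00372) with overlapping arrays, and the replication helicase subunit Mcm4 by 0.83. The G1 cyclin Ccnd1, by contrast, was even among mice, at 10.41, 10.64, 10.92, 10.68 and 10.77 in K19-Wnt1/C2mE, against 9.65, 9.64, 9.79, 9.73 and 9.81 in K19-Wnt1 (difference 0.96, SE 0.11, adjusted p = 6.18e-07). Ccnb2 differed by 0.36 (adjusted p = 0.237), and Gmnn, an inhibitor of replication licensing, fell by 0.96 on the log2 scale. With the squamous median as a covariate 7 members of the list rose instead of 15.

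Transcription factors of foregut and endoderm changed in most cases, 17 of 29 measured being higher, 7 lower and 5 not passing. Onecut2, a factor of liver, pancreas and gut, was 10.63, 10.71, 9.44, 11.41 and 10.62 in K19-Wnt1/C2mE, against 5.14, 5.3, 5.05, 4.91 and 4.15 in K19-Wnt1 (difference 5.65, SE 0.34, adjusted p = 1.8e-10). Sox2, of stomach and esophagus, rose by 1.76, Klf5 by 1.95, Ehf, an epithelial Ets factor, by 2.25 (1 of its other probe sets moved the opposite way) and Pdx1, of antrum, duodenum and pancreas, by 1.79. The endoderm factors Gata4 (-1.31), Gata6 (-0.55) and Foxa2 (-1.22) were lower. Of 21 intestinal epithelium genes 7 (33.3%) were higher, 5 (23.8%) lower and 9 did not pass, against 22.3% and 21.2% over all genes. Without K19-Wnt1/C2mE array 1, 3 or 4 or K19-Wnt1 array 1 or 6, 3 were lower. The villus protein Vil1 rose by 2.8, the antigen Gpa33 by 3.26 and the mucin Muc13 by 3.37. Fabp2, the intestinal fatty acid carrier, fell by 2.83 on the log2 scale. The master regulators Cdx1 (-0.11, adjusted p = 0.489) and Cdx2 (0.19, adjusted p = 0.0811) did not pass.

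Of 29 genes of mucin glycosylation and mucus assembly 17 rose, 4 fell and 8 did not pass. The sialyltransferase St3gal4 was 9.58, 9.85, 9.85, 9.25 and 9.62 in K19-Wnt1/C2mE, against 6.24, 6.43, 6.52, 6.01 and 6.08 in K19-Wnt1 (difference 3.37, SE 0.19, adjusted p = 1.15e-10), Galnt5, which starts O-glycans, rose by 2.19 and the mucus protein Fcgbp by 2.54, while the fucosyltransferase Fut9 fell by 1.94 on the log2 scale. Of 38 glutathione, detoxification and retinol enzymes 14 rose, 12 fell and 12 did not pass. Aldh1a3, which makes retinoic acid, was 12.26, 11.51, 11.6, 10.36 and 10.07 in K19-Wnt1/C2mE, against 6.04, 6.59, 6.32, 6.52 and 6.16 in K19-Wnt1 (difference 4.83, SE 0.49, adjusted p = 2.13e-07), and Rbp4, the retinol carrier of plasma, fell by 2.8. Of 19 genes of iron, copper and zinc handling 10 rose, 2 fell and 7 did not pass. The ferroxidase Heph rose by 2.22 and the zinc carrier Slc39a8 by 1.9, while Hamp, hepcidin, the hormone that blocks iron export, was 5.81, 6.01, 7.24, 5.75 and 5.98 in K19-Wnt1/C2mE, against 7.66, 7.71, 7.75, 8.15 and 7.76 in K19-Wnt1 (difference -1.65, SE 0.23, adjusted p = 9.05e-06). Of 8 adipocyte genes 1 rose, 2 fell and 5 did not pass. Among single genes that the study itself took up, Cdh1, E-cadherin, differed by -0.03 (adjusted p = 0.721), with an interval of -0.17 to 0.1, the receptor Dcc by -0.30 (adjusted p = 0.00881) and Ramp2 by -0.25 (adjusted p = 0.225). The other Dcc probe sets did not pass (0.01, adjusted p = 0.908, and 0.1, adjusted p = 0.469).

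The C2mE effect was set against that in the other backgrounds gene by gene. Without Wnt1, K19-C2mE differed from wild-type in 2602 genes (14.3%) that were higher and 2295 (12.6%) that were lower, and beside noggin, K19-Nog/C2mE differed from K19-Nog in 2363 (13%) and 2394 (13.2%). These comparisons had fewer arrays than the 5 against 5 with Wnt1, so their counts cannot be ranked. The effects themselves differed with and without Wnt1 in 59 genes (0.324%) that had a more positive effect with Wnt1 and 118 (0.649%) with a more negative one. Against noggin these were 477 genes (2.62%) and 255 (1.4%). Counted over probe sets, 311 (0.691%) differed between the backgrounds with and without Wnt1, a count that was 2 without the arrays with Y-linked signal, 57 with the squamous level as a covariate, 467 without K19-Wnt1/C2mE array 3, and 191, 194 and 199 without K19-Wnt1 arrays 2, 4 and 5. Without the arrays with Y-linked signal, wild-type, K19-C2mE and K19-Wnt1 each kept a single array. In the fit of all arrays Onecut2 rose by 5.65 with Wnt1 and by 3.03 without it, which differed by 2.62 (adjusted p = 0.0307). Abo, the blood group glycosyltransferase, was 8.41, 8.77, 8.31, 8.48 and 8.27 in K19-Wnt1/C2mE, against 4.56, 4.92, 4.17, 4.35 and 4.22 in K19-Wnt1, a rise of 4.0, which exceeded that without Wnt1 by 1.81 (adjusted p = 0.0133). Acnat2, an acyltransferase, Lmcd1, a LIM domain protein, and Prr18 had more positive effects with Wnt1 than in both other backgrounds, by 2.31, 1.79 and 1.69 against none and by 2.14, 1.72 and 1.89 against noggin. Gsdmc2, a gasdermin, fell with Wnt1 by 2.26 on the log2 scale and rose by 2.01 (adjusted p = 0.0444) without it and by 2.28 (adjusted p = 0.0421) with noggin, and both differences passed (-4.28, adjusted p = 0.0289, and -4.54, adjusted p = 0.011). Fabp2 also differed from both, at -2.85 (adjusted p = 0.0305) and -2.55 (adjusted p = 0.0341). Epcam and Errfi1 rose more with Wnt1 than without it, by 0.78 (adjusted p = 0.0229) and 0.98 (adjusted p = 0.03).

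**Figure D5:**
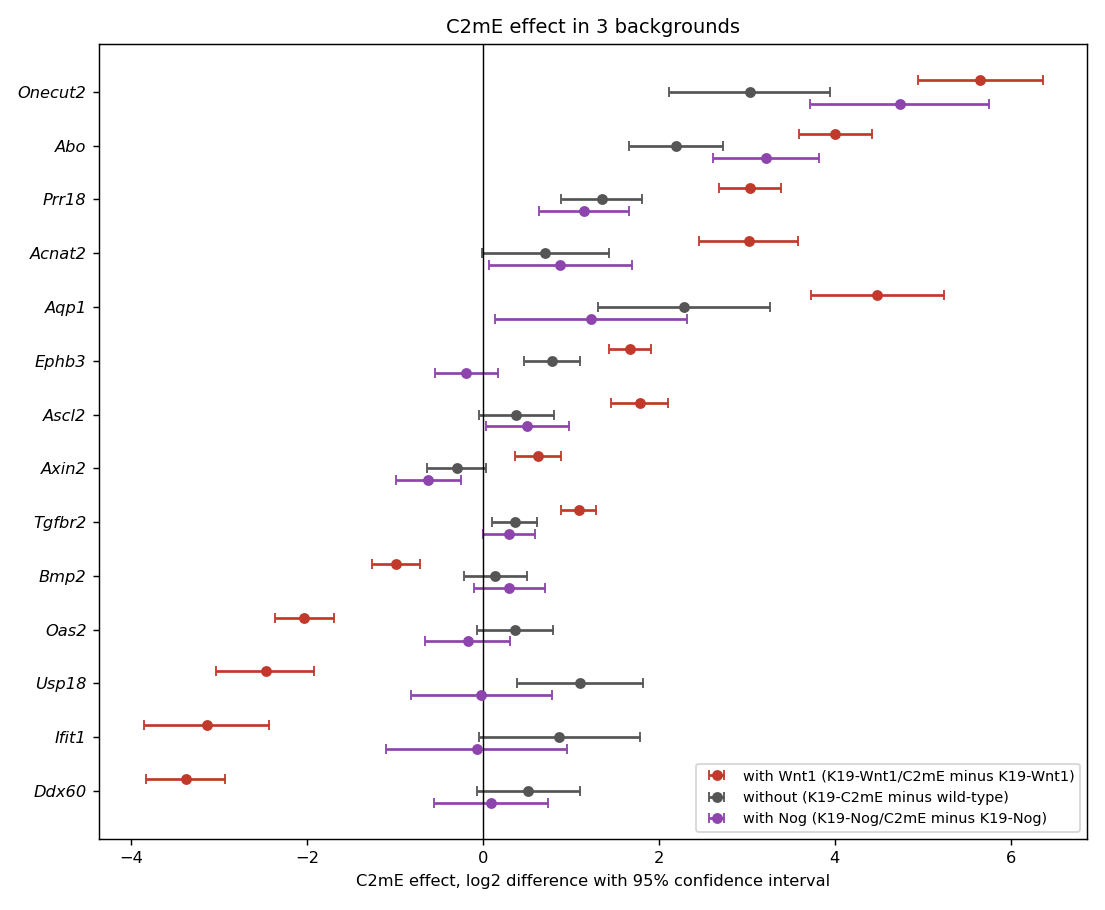
C2mE effect of 14 genes as log2 difference with 95% confidence interval, with Wnt1 (K19-Wnt1/C2mE minus K19-Wnt1), without (K19-C2mE minus wild-type) and with noggin (K19-Nog/C2mE minus K19-Nog). Each gene passed the test of a difference between backgrounds at least once, and the antiviral genes Oas2, Usp18, Ifit1 and Ddx60 have an interval wholly below 0 only with Wnt1.

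Several differences against noggin came with K19-Nog arrays higher than those of K19-Wnt1. All 15 smooth muscle genes that differed had a more positive C2mE effect with Wnt1 than with noggin, and Myh11 was 8.67, 8.39 and 7.92 in K19-Nog/C2mE and 11.81 and 11.25 in K19-Nog, while the 5 K19-Wnt1 arrays lay at 9.37 to 10.53. Vip, a neuropeptide, was 4.43, 4.28 and 3.96 in K19-Nog/C2mE and 8.62 and 8.4 in K19-Nog, and it was 3.88, 3.75, 3.96, 3.87 and 3.84 in K19-Wnt1/C2mE, against 5.08, 3.88, 5.63, 3.97 and 5.0 in K19-Wnt1, giving a difference of effects of 3.43 (adjusted p = 0.000191). Grp, gastrin-releasing peptide, likewise passed (3.99, adjusted p = 0.00017), with 5.04, 5.21 and 4.73 in K19-Nog/C2mE and 9.25 and 8.81 in K19-Nog. So did Adipoq, adiponectin (4.56, adjusted p = 0.0266), with 3.54, 3.69 and 3.36 in K19-Nog/C2mE and 7.52 and 10.76 in K19-Nog. Adipoq was 3.38, 3.52, 3.39, 3.33 and 3.38 in K19-Wnt1/C2mE, against 7.62, 3.59, 3.9, 3.25 and 3.89 in K19-Wnt1, so that K19-Wnt1 array 1 was above the lower K19-Nog array. These genes mark nerve, muscle and fat of the wall, and how deep each sample was cut is not given in the sources used here. The differences in Cd44 (2.25, adjusted p = 0.00747), Aqp1 (3.25, adjusted p = 0.0073) and Wfdc18 (4.05, adjusted p = 0.0175) came with a rise in all 3 backgrounds or, for Aqp1, with a rise with and without Wnt1 and 1.23 (adjusted p = 0.108) with noggin. Cyp2f2, a cytochrome P450 best known from the airway, rose by 4.26 with Wnt1 and by 6.7 without it and was 0.08 (adjusted p = 0.956) with noggin, the difference against noggin being 4.17 (adjusted p = 0.00551), and Cbr2, a carbonyl reductase, did likewise (3.56, adjusted p = 0.000622). Across arrays both genes had their lowest K19-Wnt1/C2mE signal in array 1, which also had the lowest squamous signal, at 6.13 for Cyp2f2 and 8.12 for Cbr2.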

How the data were processed

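RNA of 21 mouse stomachs was hybridised by the authors to Affymetrix mouse whole-genome arrays, 1 per mouse. The deposited intensity values are on a linear scale and were made by the authors with RMA (background correction, quantile normalization and probe set summary, Affymetrix Power Tools in Rosetta Resolver, versions not given in the sources used here). A second deposited table holds the log10 ratio of each array to the wild-type mean, limited to 2 in either direction, and was used as an alternative only. It differed from the intensities by at most 5.31e-05. Intensities were taken to log2 for all tests. RMA compresses differences near its floor and ceiling, and the number of arrays limits the precision.

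One coefficient per genotype was fitted to all 21 arrays with limma 3.58.1 in R 4.3.3, and p-values were adjusted over 45037 probe sets by the Benjamini-Hochberg method with 0.05 as the threshold. All adjusted p-values in the text come from this fit or from the named alternative. Differences of the C2mE effect between backgrounds were contrasts of the same fit. Of the probe sets 34945 carried 1 gene, 932 several and 9160 none, and each of 18193 genes was represented by its brightest probe set. Other probe sets of a named gene are given only for some genes, and not all of them passed or moved the same way. The test was checked on simulated data in which each probe set had the same spread in all genotypes. That check does not cover the wider spread of K19-Wnt1/C2mE. Tables and figures were made in Python 3.11.15 with pandas 2.3.3, numpy 2.4.6, scipy 1.17.1 and matplotlib 3.10.9. Promoter sequences come from RefSeq (GRCm38.p6).

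Genes to be named were the 12 largest rises and falls without overlap of arrays, leading and defining members of each list, the largest differences of effects, the transgene genes, genes the study discusses, the most variable genes and those with the smallest p. The members and lists were chosen with earlier results of these data known. Alternatives were other samples in the fit, a 2-fold limit, the array number as a block, a filter on dim probe sets, centred arrays, a variance trend, the ratio table, the mean over probe sets, the methods' t-test, the Y-linked or squamous level as a covariate, and arrays left out.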

Additional observations from a re-analysis of the deposited data

Results flagged for a closer look

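Of 548 groups of 5 arrays checked, over named genes and lists, 46 held a value far from the other 4, where chance gives about 1 in 20. K19-Wnt1/C2mE array 3 was the high one for the parietal (8.18), chief (10.26) and pancreatic acinar (7.69) list means and for Atp4a (12.48), Atp4b (12.27), Kcne2 (7.27), Kcnj16 (7.38), Pgc (13.66), Pdia2 (10.85), Fabp3 (8.2), Gpm6a (4.84), Apoa1 (10.92), Pnliprp2 (9.2), Pnliprp1 (8.03), Clps (14.63), Cox7a1 (6.76), Lgr5 (6.28) and Hamp (7.24), and the low one for Aldoc (7.73). Array 1 of that genotype was high for Ereg (10.74), Hbegf (10.95), Il1b (10.47) and the red blood cell mean (6.08). Array 2 was high for Pdk4 (9.32) and Wnt4 (10.52) and low for Ighm (7.81), array 4 was high for Prr18 (9.67) and low for Cym (11.53) and Foxa2 (7.87), and array 5 was high for Tff1 (15.29), Grp (6.47) and the Y-linked Eif2s3y (7.86).

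Among K19-Wnt1 arrays, array 1 was high for Gbp2 (9.97), Cbr2 (6.95), Adipoq (7.62) and the adipocyte (6.81) and proliferation (8.09) means. Array 2 was high for Reg3b (5.15) and Cel (9.68) and low for Mcm4 (7.51) and Heph (3.23). Array 4 was low for Rbp4 (8.33), array 5 high for Hamp (8.15) and low for Cd79a (6.07), and array 6 low for Ifit1 (7.13) and Eif2s3y (3.41).

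The C2mE effect passed the test of a difference between backgrounds in 57 cases among the named genes, given here as the effect with Wnt1 minus the other. Against both the background without Wnt1 and that with noggin, in this order, the differences were -4.01 and -3.07 for Ifit1, -2.39 and -1.86 for Oas2, -3.89 and -3.47 for Ddx60, -3.58 and -2.45 for Usp18, -3.08 and -2.55 for Oasl2 and -3.73 and -3.96 for Ifit1bl1. They were -1.13 and -1.28 for Bmp2, -2.85 and -2.55 for Fabp2 and -4.28 and -4.54 for Gsdmc2. More positive with Wnt1 than in both were Epcam (0.78 and 0.64), Axin2 (0.92 and 1.25), Ascl2 (1.39 and 1.27), Ephb3 (0.88 and 1.86), Tgfbr2 (0.73 and 0.79), Acnat2 (2.31 and 2.14), Lmcd1 (1.79 and 1.72) and Prr18 (1.69 and 1.89).

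Against the background without Wnt1 only, the differences were 0.98 for Errfi1, 2.62 for Onecut2 and 1.81 for Abo. Against noggin only, they were 2.25 for Cd44, 4.05 for Wfdc18, 1.19 for Sostdc1, 1.4 for Kit, 1.94 for Ppargc1a, 1.14 for Porcn, 0.85 for Tgfb3, 1.97 for Thbs1, 1.79 for Tek, 3.25 for Aqp1, 4.17 for Cyp2f2 and 3.56 for Cbr2. The smooth muscle genes Myh11 (1.92), Actg2 (2.66), Des (2.12), Synm (1.64) and Pln (2.28), the neuropeptides Grp (3.99) and Vip (3.43) and the fat gene Adipoq (4.56) were among these too.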

How the results depend on the processing

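The fit of all arrays called 4063 genes higher and 3856 lower, 8415 and 8481 probe sets, and a difference of the C2mE effect in 311 probe sets against the background without Wnt1 and 1355 against noggin. A 2-fold limit left 797 and 683 genes, 1459 and 1240 probe sets, and 142 and 570 differences. Without the arrays with Y-linked signal there were 1294 and 1177 genes, 2392 and 2386 probe sets, and 2 and 32 differences, with a single K19-Wnt1 array, assumed to vary like the others. In that fit the background without Wnt1 also rested on a single wild-type and a single K19-C2mE array. Leaving out dim probe sets gave 5285 lower probe sets, of fewer tested. The differences numbered 537 and 848 with only the arrays compared and 57 and 762 with the squamous level as a covariate, and against the background without Wnt1 they numbered 175 with the Y-linked signal as a covariate and 152 without K19-Wnt1 arrays 1 and 2 together, an alternative chosen after seeing the data. For these the cause was not tested. With arrays centred on their medians 4325 genes were higher and 3445 lower.

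Leaving out each array in turn gave 3737 to 4054 higher and 3522 to 3798 lower genes, 7790 to 8393 and 7750 to 8351 probe sets, and 191 to 467 and 1106 to 1508 differences. Of 205 named genes called, 198 kept the call with each array left out and 120 in every alternative, setting the 2-fold limit and the unadjusted t-test aside. The only named gene to change sign was Rptn with the squamous covariate (-0.53, adjusted p = 0.337, against 3.35, with adjusted p over its alternatives from 0.00231 to 0.337). The array numbers did not pair the genotypes (correlations of same-numbered arrays 0.173, 0.119, 0.124 and 0.0402), and with the array number as a block there were 3783 higher and 3742 lower genes and 207 differences against the background without Wnt1. Under it Cxcl2 (2.27), Psmb10 (0.55) and Mmp13 (2.26) lost their call and Col1a1 (0.41) gained one.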
